A study of Mus musculus with 25 samples.

Results

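Secreted copper-dependent enzymes were followed in RNA sequencing data of mouse atria, from wild-type mice and from mice labelled as knockouts of Pam. The members were Lox, Loxl1, Loxl2, Sod3, Aoc3 and Cp, taken by symbol, and 6 of 6 were found among the 14457 genes analysed. They were chosen as copper enzymes of the secretory path and not by a measured value. Among wild types there were 7 males and 5 females, and among knockouts 5 males and 8 females. All mice were adults of 60 to 90 days with no treatment, and RNA was taken from individual atria, so that p-values measure the spread between these atria. The labels give the knockout only as a genotype. They do not say which exons were removed, in which cells, with which promoter, or on which strain background.

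Pam encodes the amidating enzyme of secretory granules, which carries copper in its active site and receives it in the lumen of the secretory path. The other secreted copper enzymes are loaded in the same compartment, from copper pumps such as Atp7a, before they leave the cell. Lysyl oxidases (Lox, Loxl1, Loxl2) cross-link collagen and elastin outside the cell, extracellular superoxide dismutase (Sod3) removes superoxide, the amine oxidase Aoc3 sits on the outer face of cells and is partly shed, and ceruloplasmin (Cp) oxidizes iron as it leaves cells. The comparisons below ask whether the messenger RNA of these enzymes was altered in atria that had little Pam.

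The genes lie on separate chromosomes of the mouse build GRCm38 (mm10). Lox is at chr18:52516067-52529867 on the minus strand, Loxl1 at chr9:58287738-58313186 on the minus strand and Loxl2 at chr14:69609068-69695834 on the plus strand. Sod3 is at chr5:52363791-52371418, Aoc3 at chr11:101330605-101341938 and Cp at chr3:19957054-20009145, each on the plus strand. Exons of Cp overlap those of Hps3 on the opposite strand. The library kit keeps strand, but no label names the strand setting used in counting, so reads of this overlap may belong to either gene. Levels below are in CPM, reads of a gene scaled to a common library total.

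Per length of transcript, ceruloplasmin was the most abundant of the 6 messages. Divided by the length of the longest coding transcript, the median level over 25 libraries was 88.1 CPM per kilobase for Cp, 21.2 for Loxl1, 8.66 for Sod3, 3.0 for Aoc3, 2.58 for Lox and 2.21 for Loxl2. On this scale Cp was above Loxl1 in 25 of 25 libraries, Loxl1 above Sod3 in 24 of 25 and Sod3 above Aoc3 in 25 of 25. The lower 3 did not keep an order, since Aoc3 was above Lox in 13 of 25 libraries and Lox above Loxl2 in 14 of 25.

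The libraries held 2246887 (WF10) to 8098602 reads (KM07), and the median depth was 5385966 reads. Pam itself was at 1409 CPM or more in the wild-type libraries and at 520 CPM or less in the knockout libraries, a log2 difference of -3.29 over both sexes. Atrial myocyte markers were high in every library (summed level of 5 markers 15413 to 26828 CPM). Library names in the labels form 3 sets, called here LARA (12 libraries whose names begin with LA or RA), CGI (9) and MaleKOAtrium (4, all knockout males), and the labels do not say what they stand for. Of the 5 knockout males, KM13 alone is outside the MaleKOAtrium set, so the knockout and this name set cannot be told apart in males. In the LARA set genotype is also uneven over the LA and RA names, for which no genotype fit has a term. The wild-type females WF8 and WF9 and the knockout male KM13 are RA libraries. The wild-type males WM1, WM2 and WM3 and the knockout females KF14, KF16 and KF17 are LA libraries. Libraries differed in cell type markers within groups. The summed level of 5 adipocyte markers ran from 0.445 to 380 CPM, that of 3 ventricular markers from 155 to 6780 CPM and that of 5 erythroid markers from 363 to 5477 CPM. In such whole-tissue RNA, fewer cells of a type and less RNA per cell cannot be told apart.

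None of the 6 copper enzymes was called between knockout and wild-type atria in limma, over both sexes or in either sex. In the fit over both sexes the name set term takes up the 4 MaleKOAtrium libraries. The differences given for it thus rest, on the side of knockout males, on KM13 alone. Its intervals still hold the spread among those 4 libraries, KM01 and KM07 included. Over both sexes, with sex and name set as terms in limma, 0 of 6 members passed an adjusted p under 0.05, while 0.00692% of all genes did (1 gene of 14457, Pam). In females 0 of 6 passed, against 0.0138% of all genes, and in males 0 of 6 passed, against 0.277% (40 genes, 0.0277% called higher and 0.249% lower). At an unadjusted p under 0.05 the members numbered 0 over both sexes (3.68% of all genes), 0 in females (4.54%) and 1 in males, which was Cp (11.8%). The median log2 difference of the 6 was -0.11 for the pooled sexes, -0.085 for females and 0.37 for males, beside 0.071, 0.12 and 0.053 over all genes. Over both sexes the 95% interval was -0.35 to 0.33 for Loxl1 and -0.55 to 0.20 for Sod3, but -1.58 to 0.45 for Lox and -0.74 to 0.90 for Aoc3.

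**Figure D1:**
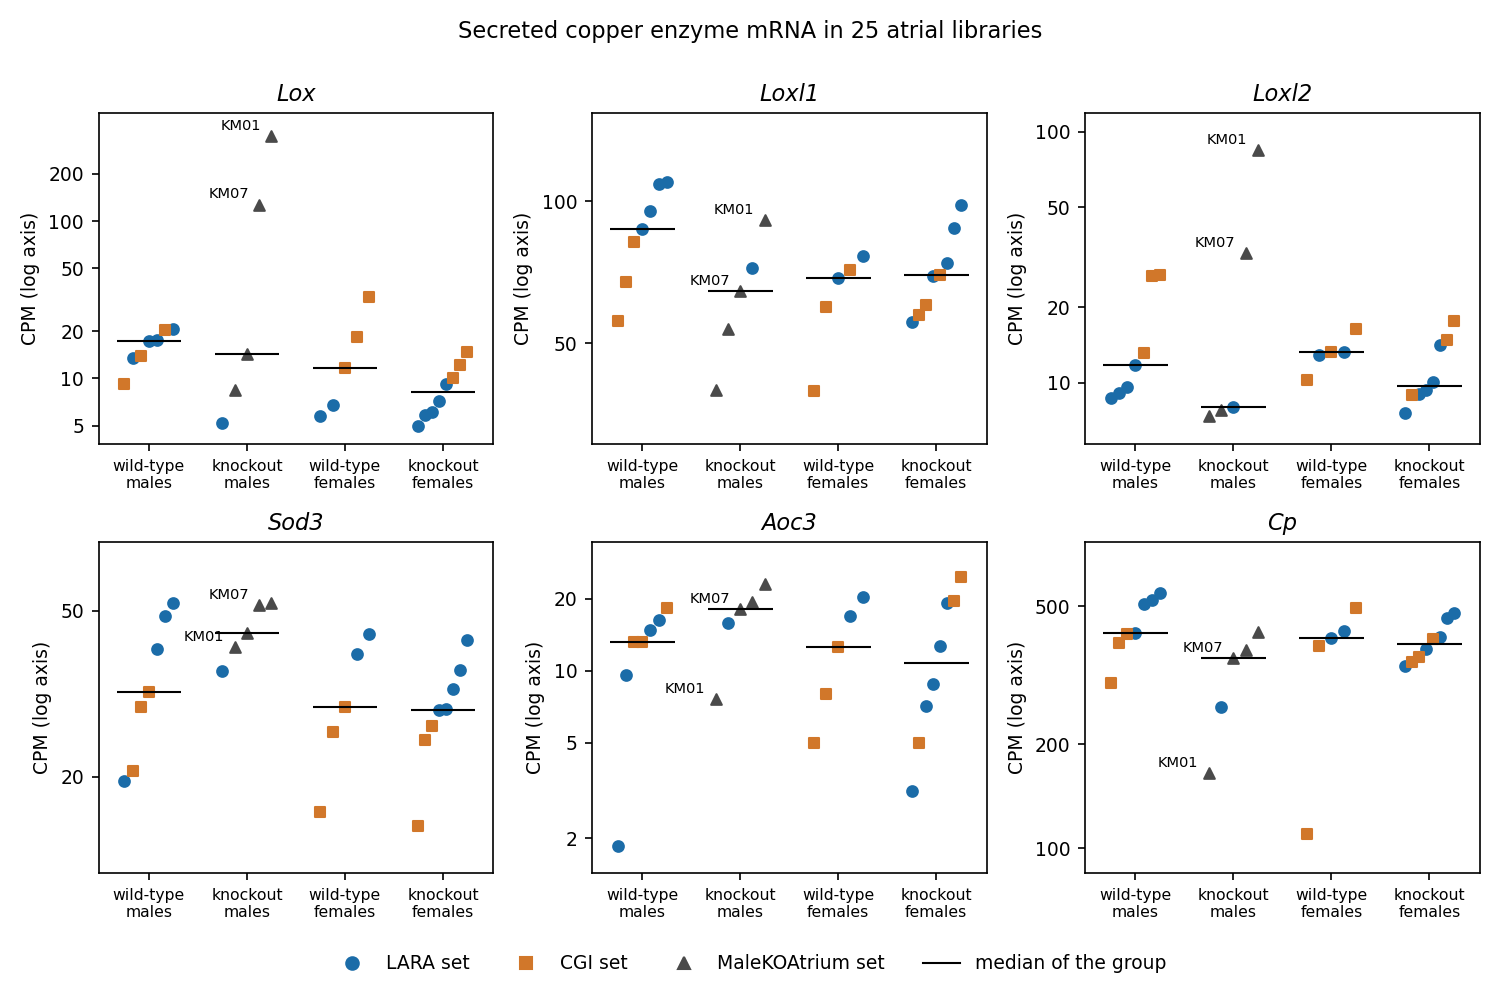
CPM of the 6 genes (log axis) in each of 25 libraries by sex and genotype, with symbols for the name set and a line at the group median. The groups overlap for every gene, and KM01 and KM07 stand above all other libraries in Lox and Loxl2.

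**Figure D2:**
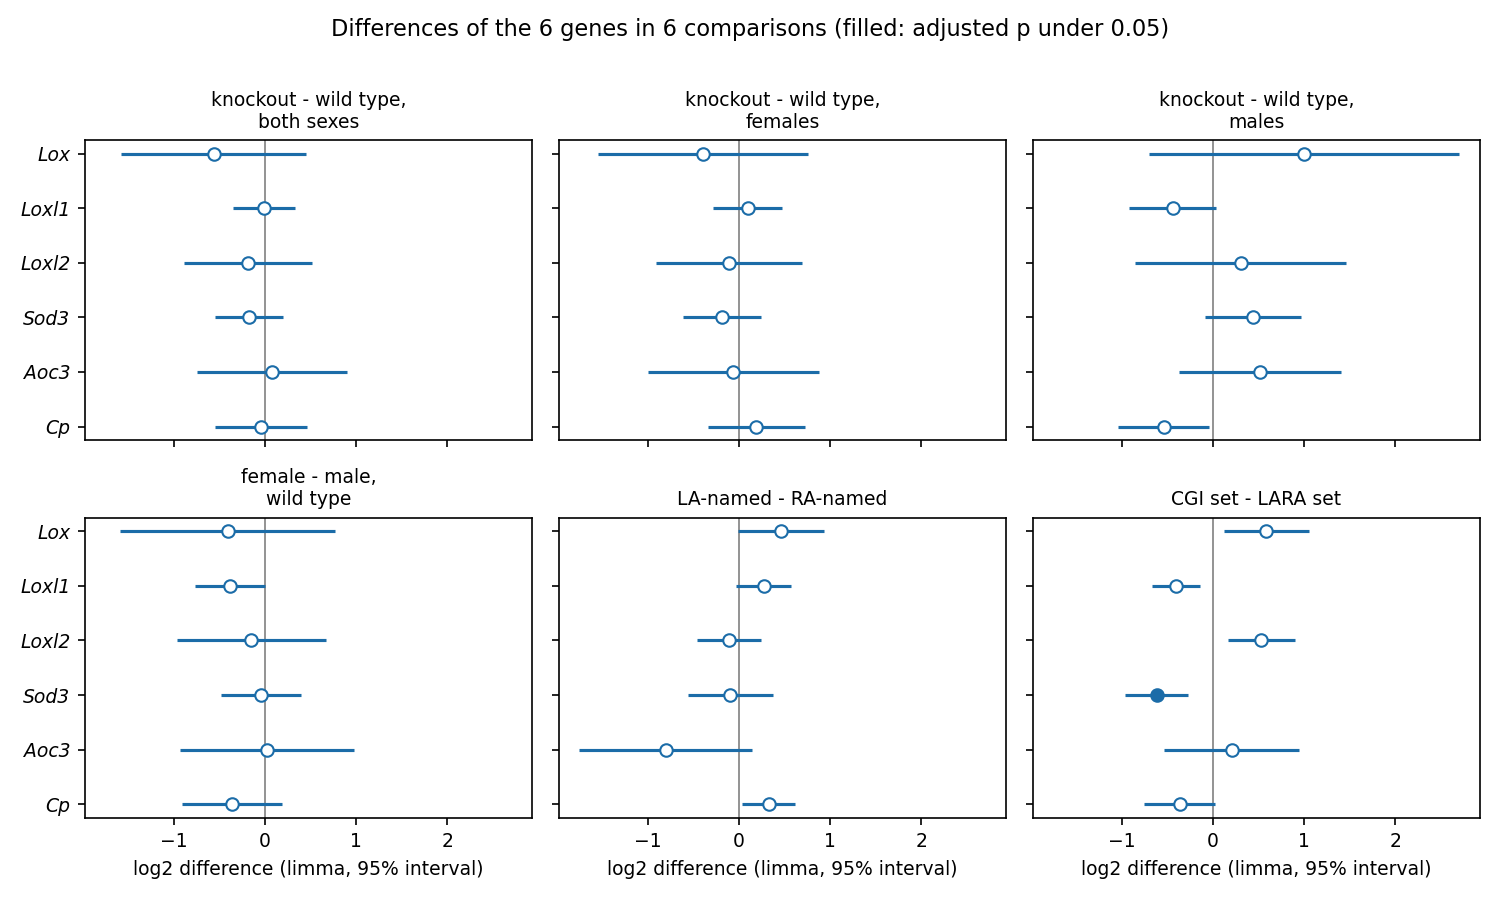
Log2 differences of the 6 genes with 95% intervals from limma in 6 comparisons, filled where the adjusted p is under 0.05. Sod3 between the CGI and LARA sets is the only filled point.

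Lox, which starts collagen and elastin cross-linking, had the widest range of the 6. In wild-type males it ran from 9.20 CPM (WM7) over a median of 17.2 to 20.7 CPM (WM4), and in knockout females from 4.94 CPM (KF15) over a median of 8.21 to 14.8 CPM (KF19). The wild-type females were at 6.73 CPM (WF8), 5.78 (WF9), 11.6 (WF10), 18.3 (WF11) and 32.9 CPM (WF12). The knockout males were at 5.20 CPM (KM13), 346 (KM01), 14.4 (KM03), 8.38 (KM05) and 128 CPM (KM07). Genotypes overlapped in both sexes, and KM01 and KM07 stood above every other library, while KM03 and KM05 of the same name set lay inside the range of the rest.

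The 2 high libraries set the direction of the Lox difference in males. The log2 difference there was 1.0 ± 0.80 (SE), with an adjusted p of 0.654 in limma and an exact two-sided permutation p of 0.357. It was 0.15 without KM01 and -0.78 ± 0.29 without both, with an adjusted p of 0.258 in limma (leaving out both was chosen after their values were seen). Within the LARA set, the lone knockout male KM13, at 5.20 CPM, was below all 4 wild-type males (13.5 to 20.7 CPM), where the smallest exact p is 0.2. In females, in a fit whose error comes from all 25 libraries, KM01 and KM07 included, the difference was -0.40 ± 0.56 (adjusted p = 0.898 in limma). By name set it was 0.058 in LARA females and -0.61 in CGI females, so it did not hold within both sets.

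Within the LARA set, Lox was lower in the 2 wild-type females than in the wild-type males. The females WF8 and WF9 were at 6.73 and 5.78 CPM, below the 4 wild-type males of that set. In the CGI set the order was not kept, with wild-type males at 9.20 to 20.2 CPM and wild-type females at 11.6 to 32.9 CPM. WF8 and WF9 are RA libraries and 3 of the 4 males are LA libraries, so sex and name largely cannot be told apart in the LARA set. The RA male, WM4, was at 20.7 CPM. Over both sets the log2 difference, female minus male, was -0.41 ± 0.57 (adjusted p = 0.906 in limma). Its error, too, comes from all 25 libraries, KM01 and KM07 included.

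Loxl1, a lysyl oxidase needed for elastic fibre upkeep, was the steadiest member, with a ratio of 2.78 between its highest and lowest library. It ran from 55.8 CPM (WM7) over a median of 87.6 to 110 CPM (WM2) in wild-type males and from 55.4 (KF15) over 69.7 to 98.4 CPM (KF16) in knockout females. The wild-type females were at 76.5 CPM (WF8), 68.6 (WF9), 39.6 (WF10), 71.4 (WF11) and 59.8 CPM (WF12). The knockout males were at 72.2 CPM (KM13), 91.4 (KM01), 53.7 (KM03), 39.7 (KM05) and 64.6 CPM (KM07). Genotypes overlapped in both sexes, and KM01 was not set apart here. The log2 difference was -0.44 ± 0.22 in males (adjusted p = 0.452 in limma) and 0.096 ± 0.18 in females, where all genes had a median of 0.12. The female value was between -0.028 and -0.0046 under the other scalings and count tests, so its direction depended on scaling.

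Loxl2, a lysyl oxidase that acts on collagen IV of basement membranes, followed Lox only in the same pair of libraries. In wild-type males it ran from 8.67 CPM (WM1) over a median of 11.8 to 26.8 CPM (WM6), and in knockout females from 7.59 (KF14) over 9.73 to 17.7 CPM (KF20). The wild-type females were at 13.3 CPM (WF8), 12.9 (WF9), 10.2 (WF10), 16.3 (WF11) and 13.3 CPM (WF12). The knockout males were at 7.98 CPM (KM13), 84.6 (KM01), 7.81 (KM03), 7.38 (KM05) and 32.8 CPM (KM07). KM01 and KM07 were above all wild-type males, and the other 3 knockout males were below all of them. The log2 difference in males was 0.30 ± 0.54 (adjusted p = 0.851 in limma). It was -0.26 without KM01 and -0.75 ± 0.35 without both, with an adjusted p of 0.328 in limma. Across 25 libraries Pearson's r between Lox and Loxl2 was 0.77, and across the 23 without KM01 and KM07 it was 0.29, as a description of libraries that differ in depth.

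The lysyl oxidases outside the member set were also highest in KM01 and KM07. Lox was 29.9 times the median of the other 23 libraries in KM01 and 11 times in KM07, and Loxl2 was 8.26 and 3.21 times. Loxl3, a related lysyl oxidase, was at 44.5 and 22.6 CPM, against at most 15.8 CPM elsewhere, and Loxl4 at 6.01 and 4.32 CPM, against at most 3.93. Loxl1 ranked 5th and 17th of 25. KM01 and KM07 were thus first and second in 4 of the 5 lysyl oxidase messages. Of 7 other measured copper proteins of the secretory path, KM01 was highest in 2, Loxl3 and Loxl4. It was lowest of 25 in 3, Heph (5.61 CPM), Dbh (0 CPM) and F8 (5.61 CPM). Over all 14457 genes KM01 was highest in 2017 and lowest in 3146, and the pair was first and second in 676.

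Many matrix genes that lysyl oxidases act on or bind were high in KM01, and fewer of them in KM07. Of 15 such genes, KM01 was the highest library in 13, and KM01 and KM07 were first and second in 9, while over all genes KM01 was highest in 13.95% and the pair was first and second in 4.68%. The matricellular gene Postn was at 1860 and 680 CPM, against at most 525 CPM in the other 23. The basement membrane collagen gene Col4a1 was at 643 and 386 CPM, against at most 285, and Thbs1, which encodes a matricellular thrombospondin, at 99.0 and 39.6 CPM, against at most 21.8. For KM01 the exceptions were Bmp1, the procollagen protease that also trims the Lox proenzyme, and Fmod, a small proteoglycan that binds collagen and Lox. Fmod was at 17.2 CPM in KM01 and 36.8 CPM in KM07. KM07 lay inside the range of the other 23 libraries in both of these and in Col1a2, Col3a1, Eln and Fbln5, where it ranked 3rd, 9th, 4th and 6th of 25.

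**Figure D3:**
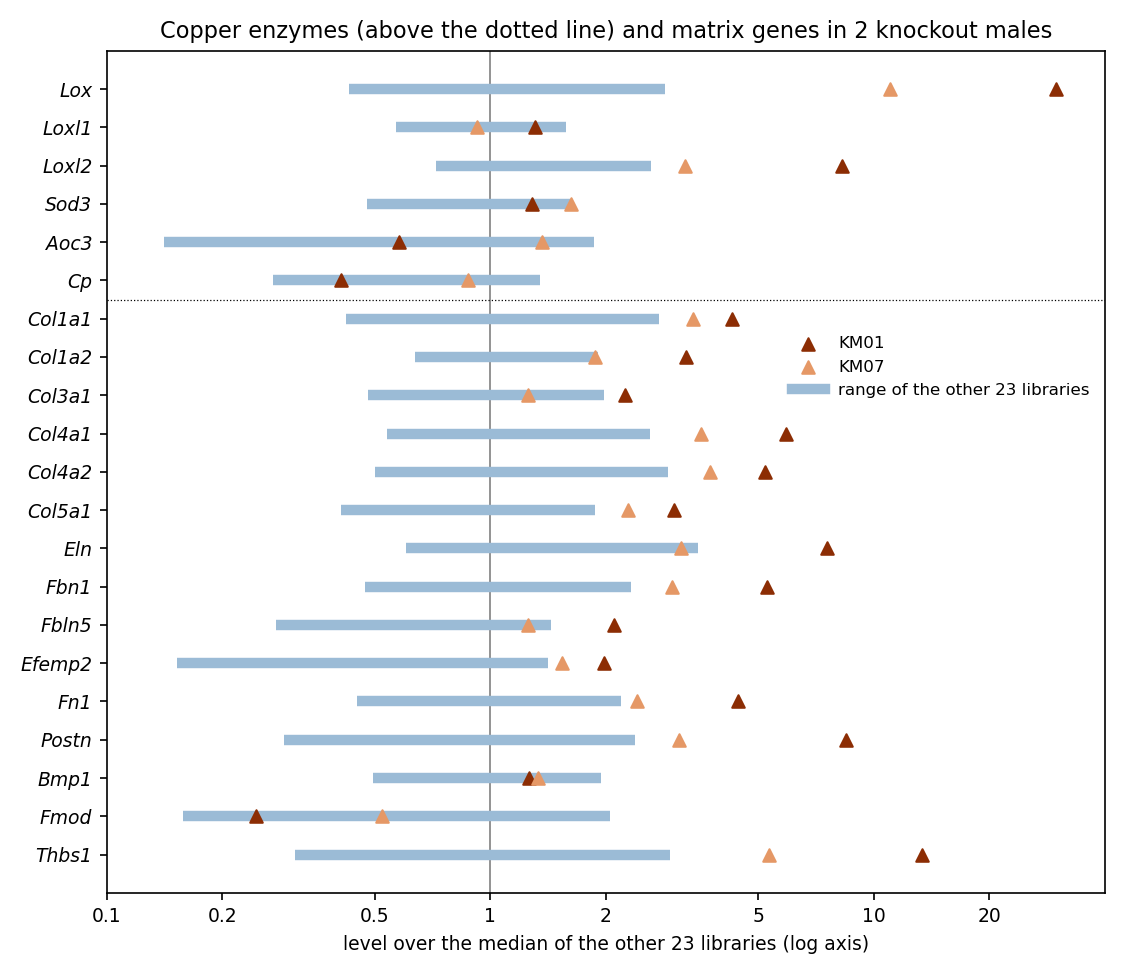
Level of the 6 copper enzymes (above the dotted line) and 15 matrix genes in KM01 and KM07 over the median of the other 23 libraries (log axis), with a bar for the range of those 23. Lox is 29.9 and 11 times the median, Loxl1, Sod3, Aoc3 and Cp stay inside the bars, and Bmp1 and Fmod are the matrix genes with both libraries inside the bar.

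KM01 stood outside the other 23 libraries in erythroid, endothelial and ventricular markers, and KM07 in depth, while the summed marker levels given here for KM07 lay inside their range. KM01 had 2494461 reads, the second lowest depth, and KM07 had 8098602, the highest. Summed erythroid markers were at 5477 and 2564 CPM, against 363 to 3531 CPM in the other 23, and summed mesothelial markers at 153 and 242 CPM, against 132 to 1108. The mesothelial 132 CPM was WF10 alone, and KM01 was the lowest of the rest. KM01 was also lowest of 25 in 5 of the 6 mesothelial markers. Summed endothelial markers were at 291 CPM in KM01, below all others (394 to 1097 CPM), and at 792 CPM in KM07. Summed ventricular markers were at 155 and 497 CPM, against 296 to 6780 CPM in the other 23. The right atrial gene Bmp10 was at 46.5 CPM in KM01 and 4999 CPM in KM07, and at 4950 to 7597 CPM in KM13, KM03 and KM05. Over all 25 libraries it ran from 0.433 to 7597 CPM. Summed fibroblast markers, at 2097 and 2801 CPM, lay inside the range of the other 23 (1284 to 4618 CPM), but its lower end was WF10 alone, and KM01 was the lowest of the rest. The 5 fibroblast markers went apart, since KM01 and KM07 ranked 1st and 2nd of 25 in Col1a1 but 24th and 23rd in Dcn, and KM01 ranked 25th in Pdgfra. Their part in the Lox and Loxl2 levels was not tested.

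No matrix gene was called over both sexes or in females, and 1 was called in males. Of the 15, 0 were higher and 0 lower over both sexes, with a median log2 difference of -0.035 beside 0.071 over all genes. In males 0 were higher and 1 was lower, with a median of 0.37 beside 0.053. The called gene was Fmod, at 111 CPM in wild-type and 37.3 CPM in knockout males (log2 -1.61 ± 0.27, adjusted p = 0.0181 in limma). Of 6 mesothelial markers, 6 were below 0 and 2 were called lower in the same comparison. Their summed level was 716 to 1108 CPM in wild-type and 153 to 750 CPM in knockout males, and their part in the Fmod difference was not tested.

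The gene whose levels ran most like Lox was Eln, which encodes elastin, a lysyl oxidase substrate. Spearman's rho over 25 libraries was 0.89 and Pearson's r 0.86 on the log2 scale, and rho was 0.86 over the 23 libraries without KM01 and KM07. Eln ran from 43.8 CPM in KF15, the library lowest in Lox, to 547 CPM in KM01, the library highest in Lox. The next genes were Vgll3 (rho 0.81), Fam198b (0.79), Trim59 (0.79) and Cfap45 (0.77). The libraries share depth differences, name sets and cell makeup, so the values describe likeness across these libraries alone.

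**Figure D4:**
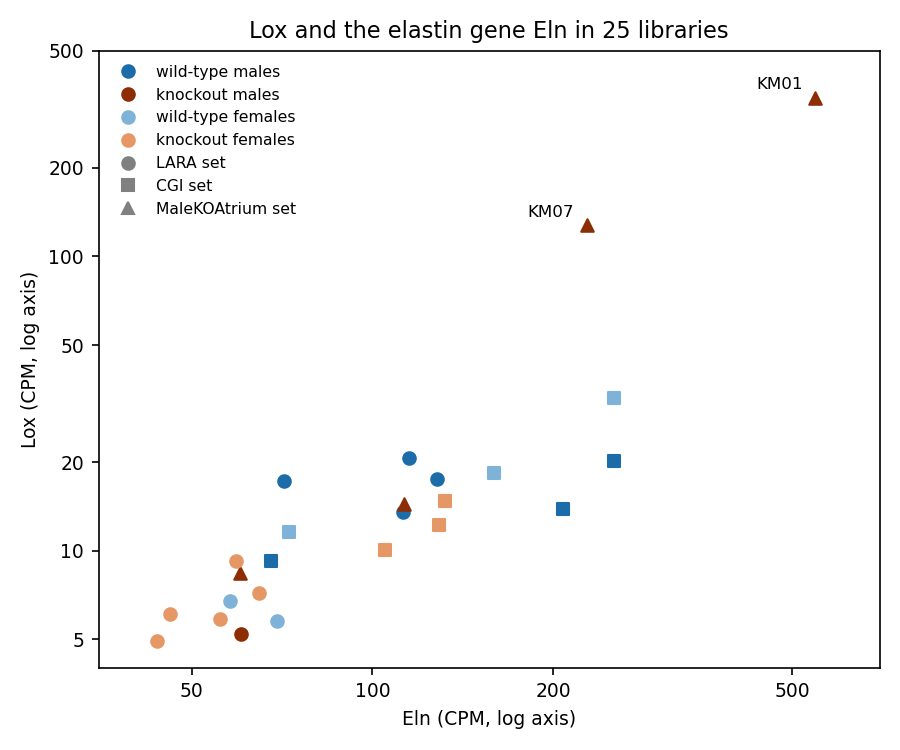
Lox against Eln in CPM (both log axes) in 25 libraries, coloured by group and with symbols for the name set. LARA libraries other than wild-type males lie at the lower left, and KM01 and KM07 are the 2 highest in Lox.

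For the other lysyl oxidases different genes came closest. Loxl1 was nearest to Adgrd1 (rho 0.86), followed by Myo1d, Cd248, Daglb and Cbr2 (rho 0.83 to 0.77). Loxl2 was nearest to 9330182L06Rik (rho 0.89), a transcript of at most 4.01 CPM, followed by Rab13, Yaf2, Mest and Lmo4 (rho 0.84 to 0.79). Loxl1 and Lox themselves were weakly related (rho 0.19).

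Sod3, the superoxide dismutase of the extracellular space, did not differ by genotype beyond its spread. It ran from 19.5 CPM (WM3) over a median of 31.9 to 52.2 CPM (WM1) in wild-type males and from 15.2 (KF19) over 29.0 to 42.7 CPM (KF16) in knockout females. The wild-type females were at 39.4 CPM (WF8), 44.0 (WF9), 16.5 (WF10), 29.3 (WF11) and 25.5 CPM (WF12). The knockout males were at 35.8 CPM (KM13), 40.9 (KM01), 44.3 (KM03), 52.3 (KM05) and 51.7 CPM (KM07), a narrow band from the middle to just above the top of the wild-type male range. The log2 difference was 0.44 ± 0.25 in males (adjusted p = 0.511 in limma, exact permutation p = 0.126) and -0.19 ± 0.21 in females (adjusted p = 0.874). In the LARA males alone, KM13 against 4 wild types, it was -0.071. That comparison leaves out both the MaleKOAtrium libraries and the 3 CGI wild-type males (20.6 to 31.9 CPM). It therefore cannot show which of them set the male direction.

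Enzymes that share the substrate or product of Sod3 were not called either. Of 12 other superoxide and peroxide enzymes, 0 were called in either direction in the pooled sexes or in either sex. Over both sexes their median log2 difference was 0.23, beside 0.071 over all genes. The smallest p belonged to Prdx4, a peroxiredoxin of the endoplasmic reticulum (log2 0.43 ± 0.19, adjusted p = 0.981 in limma), and to Sod1, the cytosolic copper and zinc dismutase (0.32 ± 0.15, adjusted p = 0.981).

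By likeness across libraries, Sod3 was nearest to Apol6 (rho 0.83), then to Plscr3, Gnai2, Zfp36l2 and Pcbp1 (0.82 to 0.80).

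Aoc3, an amine oxidase of adipocytes, smooth muscle and vessel walls, varied widely among atria of 1 group. It ran from 1.86 CPM (WM3) over a median of 13.2 to 18.3 CPM (WM5) in wild-type males and from 3.16 (KF14) over 10.8 to 24.6 CPM (KF20) in knockout females. The wild-type females were at 20.3 CPM (WF8), 16.9 (WF9), 8.01 (WF10), 12.6 (WF11) and 5.02 CPM (WF12). The knockout males were at 15.8 CPM (KM13), 7.62 (KM01), 19.4 (KM03), 23.1 (KM05) and 18 CPM (KM07). The genotypes overlapped in both sexes. The lowest value rests on 8 reads in WM3 and 15 in KF14, above the floor of 3 reads.

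Differences of Aoc3 by genotype had wide errors. The log2 difference was 0.51 ± 0.42 in males (adjusted p = 0.660 in limma), -0.062 ± 0.45 in females (adjusted p = 0.981) and 0.078 ± 0.40 over both sexes (adjusted p = 0.990). In females it was -0.99 within the LARA set and 0.70 within the CGI set, so the sign differed between sets. WF8 and WF9 are RA libraries and KF14, KF16 and KF17 are LA libraries, so genotype and name are mixed in the LARA females. None of 5 adipocyte and 3 smooth muscle markers was called by genotype in these comparisons. Aoc2, the neighbouring amine oxidase gene on chromosome 11, had a median of 2.06 CPM over the 23 libraries other than KM01 and KM07 and a log2 difference of 0.43 ± 0.24 over both sexes (adjusted p = 0.981 in limma).

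By likeness Aoc3 was nearest to Antxr1, which encodes a collagen-binding receptor (rho 0.87), and Mgll, Gata5os and Ankrd63 were also near (0.84 to 0.83). Of the 6 members, Sod3 was the closest to Aoc3 (rho 0.43).

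Cp, the ferroxidase that helps ferroportin release iron, was the only member with an unadjusted p under 0.05 by genotype, in males. In wild-type males it ran from 300.2 CPM (WM7) over a median of 420 to 548 CPM (WM1). The knockout males were at 257 CPM (KM13), 165 (KM01), 374 (KM03), 422 (KM05) and 355 CPM (KM07). KM13 and KM01 were below every wild-type male, and the other 3 lay within their range. The log2 difference was -0.54 ± 0.24 (unadjusted p = 0.0363, adjusted p = 0.382 in limma). By exact two-sided permutation p was 0.0404, or 0.485 after Benjamini-Hochberg adjustment over the 12 tests of the 6 members in both sexes, so the difference failed the correction. The log2 difference was -0.33 without KM01. In the same comparison 5 of 5 erythroid markers were above 0, with summed levels of 381 to 2939 CPM in wild-type and 2057 to 5477 CPM in knockout males. Of 5 fibroblast markers 4 were below 0 (2736 to 4618 CPM in wild-type and 2097 to 3162 CPM in knockout males), and none of either list was called. With the mesothelial markers given above, their part in the Cp difference was not tested.

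In females Cp did not show this order. It ran from 337 CPM (KF15) over a median of 389 to 478 CPM (KF18) in knockouts, and was at 406 CPM (WF8), 426 (WF9), 110 (WF10), 383 (WF11) and 495 CPM (WF12) in wild types. The log2 difference was 0.19 ± 0.26 (adjusted p = 0.897 in limma), and -0.14 without WF10. The knockout effect in females minus that in males was 1.11 ± 0.55 on the log2 scale (adjusted p = 0.551 in limma), while all genes had a median of 0.25. The name set is a term of that fit too, so the knockout males enter its estimate through KM13 alone. KM13 is an RA library, while WM1, WM2 and WM3 are LA libraries, so genotype and name are mixed there. With single libraries left out the sex difference of the knockout effect ran from 0.71 (without WF10) to 1.32. In that test 0 of 6 members were called, as were 0% of all genes, and 0 members and 9.17% of all genes had an unadjusted p under 0.05.

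The partners of Cp in iron handling were not called by genotype. Of 10 measured genes, which include the exporter Slc40a1 (ferroportin), transferrin and its receptor, ferritin chains and hepcidin, 0 passed in either direction in any of the 3 genotype comparisons. Over both sexes the smallest p belonged to Tfrc, the transferrin receptor (log2 -0.82 ± 0.34, adjusted p = 0.981 in limma). In males it belonged to the metal importer gene Slc39a14 (0.64 ± 0.20, adjusted p = 0.240 in limma), followed by the iron transporter gene Slc11a2 (0.54 ± 0.21, adjusted p = 0.322). In KM01, where Cp ranked 24th of 25, the list went both ways. That library was lowest in 2 of the 10, Slc40a1 (6.82 CPM) and Tfrc (62.9 CPM), and highest in 3, the ferritin genes Fth1 (3271 CPM) and Ftl1 (222 CPM) and Slc39a14 (54.1 CPM). Over all genes KM01 was lowest in 3146 and highest in 2017 of 14457.

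By likeness Cp was nearest to Plat, the tissue plasminogen activator (rho 0.83), then to Dll1, Hsp90b1, Spon1 and Ackr3 (0.82 to 0.80).

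Genes that bring copper to these enzymes were not called by genotype. Of 12 measured genes for copper uptake, delivery and storage, 0 passed by genotype, with medians of 0.15 in the pooled sexes, 0.066 in females and -0.11 in males, beside 0.071, 0.12 and 0.053 over all genes. Atp7a, a pump that loads copper into secreted enzymes, had a log2 difference of -0.27 ± 0.17 over both sexes (adjusted p = 0.981 in limma). Steap4, a metalloreductase, had the smallest p of the list (-0.46 ± 0.16, adjusted p = 0.981), followed by the metallothionein gene Mt3 (0.75 ± 0.32, adjusted p = 0.981). Of 7 other measured copper proteins of the secretory path, among them Loxl3, Loxl4, Aoc2, Heph and Dbh, 0 passed in these 3 comparisons.

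The wild-type sexes did not differ in the members by the same test. Of 6 members 0 were called, beside 0.0553% of all genes (8 genes, 0.0138% higher and 0.0415% lower), and 0 had an unadjusted p under 0.05 (6.38% of all genes). The lowest p was that of Loxl1, with a log2 difference, female minus male, of -0.38 ± 0.19 (adjusted p = 0.775 in limma), where the median of all genes was -0.11.

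More genes were called between the CGI and LARA name sets than between genotypes, and 1 of the 6 members was among them. The fits differ, since the set comparison leaves out the 4 MaleKOAtrium libraries, which stay in the error of the genotype fits over both sexes and in either sex. Over both sexes without those 4, 2 genes were called between genotypes, none a member. By size, the genotype differences in males were larger than those between the sets for Lox, Loxl1, Aoc3 and Cp. They were smaller for Loxl2 and Sod3. With sex and genotype group as a term, 1 of 6 members was called, beside 7.83% of all genes (1132 genes, 4.79% higher and 3.04% lower), and 4 of 6 had an unadjusted p under 0.05, beside 25.8%. Sod3 was lower in the CGI set, at 15.2 to 31.9 CPM over 9 libraries and 19.5 to 52.2 CPM over 12 LARA libraries (log2 -0.62 ± 0.17, adjusted p = 0.0279 in limma). The call was lost without WM1 (adjusted p = 0.0540), WM2 (0.0509) or WM7 (0.0589). Loxl1 was at a log2 difference of -0.40 ± 0.13 (adjusted p = 0.0519 in limma), Loxl2 at 0.53 ± 0.18 (0.0644) and Lox at 0.58 ± 0.22 (0.103). Under the other scalings and count tests Loxl1 and Loxl2 passed as well, with 3 of 6 members called, or 4 with DESeq2. The calls over all 14457 genes rose too, to 2318 (median-ratio), 2383 (quantile), 2438 (edgeR) and 3035 (DESeq2).

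Other genes of the lists moved with the name sets too. Eln (log2 0.95 ± 0.22, adjusted p = 0.0125 in limma) and Fbn1, the fibrillin gene of elastic fibres (0.62 ± 0.19, 0.0450), were higher in the CGI set. Lower there were Steap4 and the metallothionein gene Mt2, the iron genes Trf, Ftl1 and Hmox1, and the peroxide enzymes Cat and Prdx6 (log2 -0.57 to -1.0). Adipocyte markers were lower in the CGI set, 5 of 5 called, with a summed level of 0.445 to 64.8 CPM against 13.5 to 380 CPM in the LARA set, and 2 of 5 macrophage and 1 of 5 atrial myocyte markers were called lower. Of 3 smooth muscle markers 0 were called and 2 had an unadjusted p under 0.05, with log2 values of -1.04 to -0.62 over the 3. Aoc3, at 0.20 ± 0.36 (adjusted p = 0.755 in limma), was not called. What the cell type markers contribute to the Sod3 difference was not tested.

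Within the LARA set, libraries named LA and RA did not differ in the members by test. Of 6 members 0 were called, as were 0% of all genes, and 1 had an unadjusted p under 0.05 (5.51% of all genes). That was Cp, at 376 to 548 CPM in the LA libraries and 257 to 478 CPM in the RA libraries (log2 difference, LA minus RA, 0.32 ± 0.14, adjusted p = 0.842 in limma). Bmp10, a right atrial gene, was at 0.433 to 1.26 CPM in WM1, WM2, WM3 and KF14, which are 4 of 6 LA libraries. Cp in those libraries was at 548, 507, 522 and 462 CPM. Aoc3 was at 14.7, 9.61, 1.86 and 3.16 CPM in them, and its difference, LA minus RA, was -0.80 ± 0.44 (adjusted p = 0.845 in limma), or 0.27 without those 4.

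The authors' deposited table gives its own log2 ratio of wild type over knockout and a p-value for each gene. In the authors' deposited table the p-values of the members were 0.886 for Lox, 0.256 for Loxl1, 0.166 for Loxl2, 0.842 for Sod3, 0.744 for Aoc3 and 0.174 for Cp. The authors' deposited table lists a log2 ratio of -1.49 for Lox, the largest in size of the 6, which is a higher knockout average. That direction is opposite to the difference found here with the name set as a term (-0.56 ± 0.49, knockout minus wild type, adjusted p = 0.981 in limma). The knockout average includes KM01 and KM07. The directions were also opposite for Loxl2 and Sod3. The authors' deposited table has -0.32 and -0.097 for them as wild type over knockout. The values here were -0.19 and -0.17 as knockout minus wild type. Without the name set term the differences here were 0.22 for Lox, 0.032 for Loxl2 and 0.19 for Sod3, which is the direction of the authors' deposited table. The median of Lox was 9.25 CPM in the 13 knockout and 15.5 CPM in the 12 wild-type libraries.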

How the data were processed

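RNA was measured in 25 mouse atrial libraries (stranded TruSeq mRNA kit and paired reads of 75 bases, per the labels' protocols). HISAT2, HTSeq, DESeq2 and mm10 are named, without versions, per the submitters' processing notes. The deposited table is called FPKM in its header, but its values are CPM: in every library 100% of values were whole multiples of 1 read (tolerance 0.001 reads), the same for all genes, so the authors had not divided by gene length. Depth was recovered from these steps. The lowest gene mean was 1.00 CPM, and genes below it were not analysed here. The authors also deposited a log2 ratio and a p-value per gene, and whether that p-value is adjusted is not stated. The 10 lines of 5 repeated symbols were left out, none a member.

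The members and gene lists were chosen with earlier results of these data known. Values were analysed as log2(CPM + 1), so differences of low genes are understated. A filter of at least 1 CPM in at least 5 libraries removed no gene. Limma 3.58.1 (lmFit, eBayes with trend) in R 4.3.3 was fitted to all 14457 genes, with Benjamini-Hochberg adjusted p under 0.05 called. Sex and name set (both sexes), or 4 sex and genotype groups and name set (females, interaction, sex), were terms. The male comparison used the 12 males with no further term, since all but KM13 of the knockout males share a name set. LA against RA had genotype and sex as terms, and CGI against LARA the group. Members were also compared by exact two-sided permutation of mean log2 values within each sex, adjusted over 12 tests. Errors of log2 differences are limma's standard errors (SE). Over both sexes, in females, for the interaction and between wild-type sexes they come from the spread in all 25 libraries. Correlations are descriptions on the log2 scale. The named genes were the 6 members, Pam, Bmp10, the called genes of each list or the 2 of smallest p, and the 5 genes of highest Spearman rho per member. A gene that this rule names is not reported here. Loxl3, Loxl4, Heph, Postn, Col4a1, Thbs1, Bmp1, Slc40a1, Aoc2, Atp7a and the genes named for KM01 and KM07 were chosen after their values were seen. Aoc1, Hephl1, Moxd1, Tyr, Atp7b, Hamp2 and Tagln, which the lists hold, were not analysed here. GENCODE M21 on GRCm38 gave lengths and coordinates. The fits were tested on simulated data. A floor of 3 reads is 0.370 CPM in the deepest and 1.34 CPM in the least deep library, and covers counting error only. Alternatives were a pseudocount of 0.1, other filters, median-ratio scaling, quantile normalization, edgeR 4.0.16 and DESeq2 1.42.0 on the recovered reads, fits with and without the name set, single sets, and each library left out.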

Additional observations from a re-analysis of the deposited data

Results flagged for a closer look

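Cp in the wild-type female WF10 was at 110 CPM, far from the other 4 wild-type females at 383 to 495 CPM, and the gap took 0.710 of the group's range, at the edge of the critical value for 5 samples. Of 24 groups of 1 member each, 1 was set apart in this way, and chance gives about 1 in 20. WF10 was also the least deep library, at 2246887 reads, where Cp rests on 247 reads. It was lowest of 25 libraries in summed fibroblast markers (1284 CPM), mesothelial markers (132 CPM), adipocyte markers (0.445 CPM) and copper delivery genes (251 CPM), and highest in ventricular markers (6780 CPM). Their part in the Cp value was not tested.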

How the results depend on the processing

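The count of called members stayed at 0 in the genotype, sex and LA against RA comparisons under every alternative run. Between the CGI and LARA sets it was 1 as reported, 3 under median-ratio scaling, quantiles or edgeR, 4 by DESeq2, and 0 to 3 with single libraries left out (0 without WM1 or WM2). Beside these, the calls over all 14457 genes were 1132 as reported and 2318, 2383, 2438 and 3035 in the same order. They were 468 to 2907 with single libraries left out. Scaling turned small values: Loxl1 in females became -0.028 (median-ratio), -0.0058 (quantile), -0.0046 (edgeR) and -0.016 (DESeq2), and Sod3 between wild-type sexes 0.079, 0.059, 0.022 and 0.024. Without the name set term, Lox, Loxl2 and Sod3 over both sexes became 0.22, 0.032 and 0.19, and the sex difference of the knockout effect -1.53 for Lox and -0.53 for Loxl2. With the term, or in the LARA set alone, Lox, Loxl2 and Sod3 in males became -1.54, -0.25 and -0.071, resting on KM13. The LARA set alone gave -0.34 for Aoc3 over both sexes, and 0.058 for Lox and -0.025 for Cp in females. The CGI set alone gave 0.024 for Loxl2 and 0.70 for Aoc3 in females. Without the 4 libraries with Bmp10 near 0, LA minus RA became 0.22 for Loxl2, 0.35 for Sod3 and 0.27 for Aoc3. Leaving out both KM01 and KM07, chosen after seeing the data, gave -0.78 for Lox and -0.75 for Loxl2 in males. For these turned values the cause was not tested.

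With each library left out, differences in males ranged from 0.15 to 1.60 for Lox, -0.58 to -0.29 for Loxl1, -0.26 to 0.58 for Loxl2, 0.32 to 0.55 for Sod3, 0.17 to 0.75 for Aoc3 and -0.67 to -0.33 for Cp. The female group means differed by -0.77 to -0.19, 0.030 to 0.26, -0.32 to -0.15, -0.25 to 0.096, -0.37 to 0.10 and -0.12 to 0.42 in the same order of genes. In limma with the name set, ranges that crossed 0 over both sexes were -0.10 to 0.096 for Loxl1, -0.093 to 0.33 for Aoc3 and -0.31 to 0.19 for Cp. In females they were -0.014 to 0.18 for Loxl1, -0.23 to 0.012 for Loxl2, -0.33 to 0.23 for Aoc3 and -0.14 to 0.37 for Cp. The other ranges across 0 were those of Sod3 for the sex difference of the knockout effect (-0.21 to 0.14), of Sod3 (-0.19 to 0.090) and Aoc3 (-0.28 to 0.30) between wild-type sexes, of Sod3 for LA minus RA (-0.19 to 0.092) and of Aoc3 for CGI minus LARA (-0.0089 to 0.38).

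Counts over all genes moved more. In males 40 genes were called as reported, 16 to 205 with single libraries left out, 62 after median-ratio scaling, 74 after quantile normalization, 413 by DESeq2, 1 with the set term, 3 in the LARA set alone and 21 without KM01 and KM07. Between the sets the count was 1132 as reported, 468 to 2907 with single libraries left out, and 2318, 2383, 2438 and 3035 under the other scalings, edgeR and DESeq2. With DESeq2 it was 3 over both sexes, 13 in females, 234 for the sex difference of the knockout effect, 80 between wild-type sexes and 4 for LA against RA, against 1, 2, 0, 8 and 0 as reported. For the sex difference of the knockout effect it was 12 with a pseudocount of 0.1, 10 with edgeR and 23 without the name set. In females it was 25 in the CGI set alone and 1 in the LARA set alone. No paired analysis was possible because the library numbers are running codes that the groups compared do not share. Depth limits Aoc3 and Loxl2 most, since the fewest reads per library were 8 and 23.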
